A study of Mus musculus with 6 samples.

Results

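The 3 sites described here lie in the mouse pancreas transcriptome. At each, a long non-coding RNA (lncRNA) gene that was at or near 0 reads after saline lay beside a coding gene that was higher after cerulein. The 9 genes were chosen by symbol from their values in this same cerulein against saline comparison, out of 36333 rows of the deposited table. They were 3 lncRNA genes and 6 coding genes: 1700016G22Rik with Klf6 on chromosome 13, Gm34642 with Trpv6, Kel, Trpv5 and Ephb6 on chromosome 6, and Gm30963 with Uhrf1bp1l on chromosome 10. Their levels in the comparison are therefore given as a description, without tests. Pancreas RNA came from wild-type mice, with 3 libraries after intraperitoneal cerulein and 3 after intraperitoneal saline. Cerulein is a cholecystokinin analogue that overstimulates acinar cells. Its dose was 200 µg/kg/h, each of the 10 injections had a volume of 200 µl, and the pancreas was collected at the end of the course. The labels give no strain, sex or age and do not say that each library came from its own animal, so p-values measure the spread between libraries, which may be technical.

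A lncRNA is a transcript without a long open reading frame. Many lncRNA genes start close to the start of a coding gene and are transcribed away from it, an arrangement called divergent or head to head. No function is assigned here to the 3 lncRNAs. Of the coding genes, Klf6 encodes a zinc finger transcription factor of the Krüppel-like family. Trpv6 and Trpv5 encode calcium-selective epithelial channels, and damaging TRPV6 variants have been linked to chronic pancreatitis in people. Kel encodes a zinc endopeptidase known as a red cell blood group antigen. Ephb6 encodes an Eph receptor whose kinase domain is inactive, and Uhrf1bp1l a protein of the bridge-like lipid transfer family.

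All 3 lncRNA genes were divergent from a coding gene. They were chosen together with neighbouring coding genes, so closeness was part of the choice and nothing is read from the shared arrangement. Of 288 tested lncRNA genes that did not overlap their nearest tested coding gene, 92 were divergent from it with start sites within 10 kb. By RefSeq spans on GRCm38.p6, the start sites of 1700016G22Rik and Klf6 lay 3397 bases apart, those of Gm30963 and Uhrf1bp1l 3775 bases apart, and those of Gm34642 and Trpv6 5325 bases apart. Each pair is thus separated by several kilobases and the members do not share a single promoter window. The 250 bases before the start that RefSeq's promoter table uses are shown for both members of each divergent pair and for Kel, because these windows border the transcripts whose levels are described below. They are RefSeq sequences of GRCm38.p6, written 5′ to 3′ on the strand of the gene, and capitals mark a match to one of the motifs listed after them. For Kel and Uhrf1bp1l that start lies some bases inside the gene span, so their windows reach slightly into the span, and the start-site distances above are taken from the spans.
1700016G22Rik, chr13:5858093-5858342, minus strand: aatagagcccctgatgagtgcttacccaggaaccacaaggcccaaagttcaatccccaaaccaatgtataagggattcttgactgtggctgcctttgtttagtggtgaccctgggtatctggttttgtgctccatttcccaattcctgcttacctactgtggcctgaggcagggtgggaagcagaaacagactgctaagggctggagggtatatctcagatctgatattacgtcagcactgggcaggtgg
Klf6, chr13:5861239-5861488, plus strand: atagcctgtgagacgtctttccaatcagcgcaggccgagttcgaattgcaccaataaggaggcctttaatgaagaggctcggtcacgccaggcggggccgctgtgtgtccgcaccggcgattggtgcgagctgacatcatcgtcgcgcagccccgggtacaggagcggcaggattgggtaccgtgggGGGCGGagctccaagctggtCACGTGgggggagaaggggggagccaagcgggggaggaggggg
Gm34642, chr6:41641480-41641729, plus strand: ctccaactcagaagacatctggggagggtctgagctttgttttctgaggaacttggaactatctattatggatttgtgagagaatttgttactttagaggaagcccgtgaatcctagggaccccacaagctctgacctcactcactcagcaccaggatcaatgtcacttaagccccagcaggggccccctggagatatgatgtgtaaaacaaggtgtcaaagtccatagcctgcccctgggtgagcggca
Trpv6, chr6:41636406-41636655, minus strand: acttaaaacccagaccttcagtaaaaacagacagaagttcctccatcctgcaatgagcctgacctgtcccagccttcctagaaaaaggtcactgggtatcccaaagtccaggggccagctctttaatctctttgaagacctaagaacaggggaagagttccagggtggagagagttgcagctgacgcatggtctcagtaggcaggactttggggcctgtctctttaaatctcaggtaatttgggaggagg
Kel, chr6:41704326-41704575, minus strand: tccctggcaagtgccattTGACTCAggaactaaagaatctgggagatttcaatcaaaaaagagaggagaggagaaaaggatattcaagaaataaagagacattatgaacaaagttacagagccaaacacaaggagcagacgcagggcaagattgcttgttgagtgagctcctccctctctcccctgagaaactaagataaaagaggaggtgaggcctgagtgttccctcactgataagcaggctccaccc
Gm30963, chr10:89741194-89741443, minus strand: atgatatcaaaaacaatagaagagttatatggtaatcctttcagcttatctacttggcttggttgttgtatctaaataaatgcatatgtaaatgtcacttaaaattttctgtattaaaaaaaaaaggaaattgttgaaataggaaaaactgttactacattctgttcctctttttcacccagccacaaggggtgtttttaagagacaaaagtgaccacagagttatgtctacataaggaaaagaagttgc
Uhrf1bp1l, chr10:89744741-89744990, plus strand: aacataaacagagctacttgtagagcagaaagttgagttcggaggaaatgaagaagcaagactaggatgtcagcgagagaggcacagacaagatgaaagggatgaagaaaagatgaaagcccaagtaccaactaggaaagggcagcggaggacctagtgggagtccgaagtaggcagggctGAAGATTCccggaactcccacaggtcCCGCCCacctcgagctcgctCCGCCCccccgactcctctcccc
Besides the NFAT core, these patterns were searched on both strands in each window: the AP-1 site TGANTCA, the cAMP response element TGACGTCA, the ATF4 element TGATGCAA, the NF-kB site GGANTTTCC, the E-box CACGTG, the GC box GGGCGG, the TATA box TATAAA, the heat shock element GAANNTTC and the serum response element. The NFAT core GGAAA is not capitalised, as 55.6% of 32851 promoter windows hold it. No match of one motif overlapped a match of another.

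The NFAT core occurred in 4 of the 9 windows, those of 1700016G22Rik, Klf6, Gm30963 and Uhrf1bp1l. None of the other motifs occurred in the windows of the 3 lncRNA genes or of Trpv6. Klf6 held a GC box, found in 32.7% of all windows, and an E-box, found in 6.02%. Kel held the AP-1 site TGACTCA, at 232 to 226 bases before the start of the promoter table, and 6.75% of all windows hold an AP-1 site. Uhrf1bp1l held 2 GC boxes and a heat shock element, which 6.69% of all windows hold. Of the windows not printed, whose starts lie well inside the gene spans, that of Ephb6 held 5 GC boxes and that of Trpv5 a TATA box, which 12.4% of all windows hold. These are matches of letters only. Base composition differed within the pairs: the Gm30963 window had a GC content of 31.2%, against 54.4% for Uhrf1bp1l, and the 1700016G22Rik window 50.4%, against 64.8% for Klf6. Gm34642 and Trpv6 were alike at 50% and 49.6%. The median over all windows was 52.4%.

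Counts in the table summed to between 5335117 and 7610775 per library. Of 12441 genes tested with edgeR's quasi-likelihood test, 28.7% were called higher after cerulein and 27.1% lower at an adjusted p under 0.05. With TMM scaling these were 3574 and 3373 genes. Upper-quartile factors gave 2895 higher and 4190 lower and shifted the median gene by -0.20 (log2). Scaling by library size alone gave 5181 higher and 1449 lower and shifted the median gene by 0.56. All differences below use TMM. The acinar markers, which should dominate pancreas RNA, summed to between 162799 and 205370 CPM (reads scaled to a common TMM-adjusted library size) after cerulein. They summed to 254299, 476902 and 466387 CPM in saline replicates 1, 2 and 3, and 5 of 6 were called lower. Saline replicate 1 thus lay nearer the cerulein libraries than the other saline libraries did. Duct markers summed to between 732 and 923 CPM after cerulein and between 52.7 and 71.0 CPM after saline, with 4 of 5 called higher and 1 lower. The part of these shifts in the levels below was not tested, and in bulk tissue fewer cells of a type and less RNA per cell cannot be told apart. Summed neutrophil markers were 49.0, 88.6 and 118 CPM in cerulein replicates 1, 2 and 3. They stood apart in saline replicate 1, at 200.3 CPM, and were at most 39.9 CPM in the other saline libraries.

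**Figure D1:**
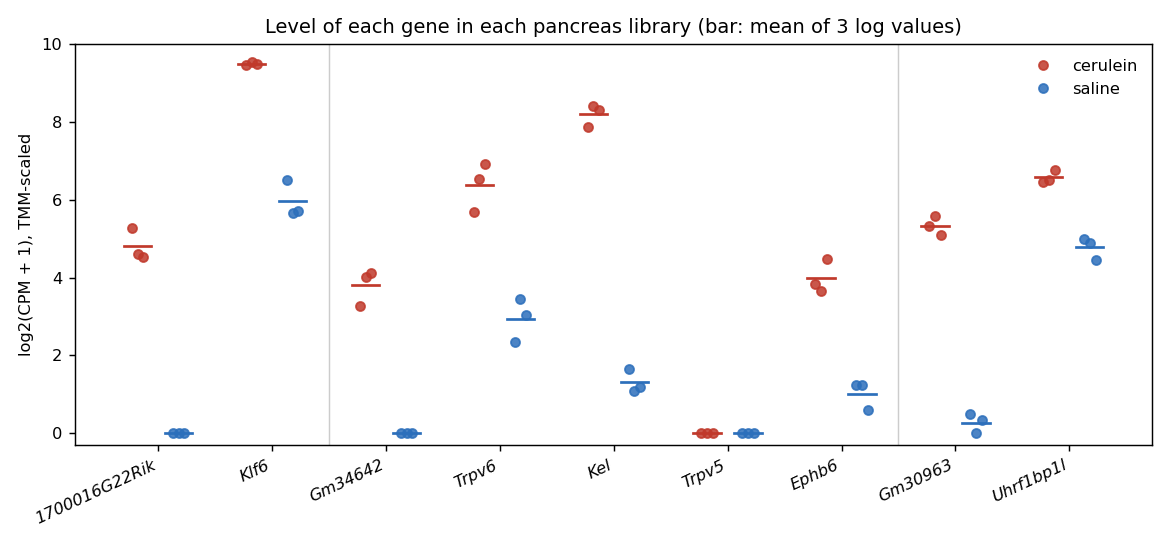
Level of each of the 9 genes in each library, as log2(CPM + 1) on TMM-scaled library sizes. Cerulein libraries (red) are drawn left of saline libraries (blue), points are single libraries and bars are means of the 3 log values. Trpv5 lies at 0 throughout, and for each of the other 8 genes every cerulein point lies above every saline point.

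Of the 9 genes, 8 passed the count filter, the exception being Trpv5. In each of the 8, every cerulein library lay above every saline library, as it did in 32.4% of all tested genes. The genes were picked for this and nothing is read from the count. The lncRNA genes passed the filter through their cerulein libraries alone. Among 420 tested lncRNA genes, of which 24.0% were called higher and 35.7% lower, 1700016G22Rik, Gm34642 and Gm30963 ranked 1, 2 and 5 by log2 fold change. In total 6 tested lncRNA genes had no read in any saline library, and 1700016G22Rik and Gm34642 are among them.

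On chromosome 13, the lncRNA gene 1700016G22Rik (gene ID 71867, positions 5855509 to 5858092, minus strand) had 318, 198 and 175 reads in cerulein replicates 1, 2 and 3, and 0 reads in each saline library. These correspond to 37.6, 23.2 and 22.1 CPM after cerulein. A count of 0 allows up to 0.406, 0.676 and 0.771 CPM in saline replicates 1, 2 and 3, taking 3 reads as the limit. Cerulein replicate 1 stood above the other cerulein libraries, the highest cerulein value being 1.70 times the lowest. With the 691 cerulein reads set against a floor of 3 reads over the saline group, the lower limit for 1700016G22Rik was 145-fold. This limit leaves out the spread among the cerulein libraries.

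Its neighbour Klf6 (gene ID 23849, positions 5861489 to 5870393, plus strand) was already expressed after saline. Klf6 stood at 698, 739.8 and 720.4 CPM in cerulein replicates 1, 2 and 3, and at 90.2, 49.6 and 51.7 CPM in saline replicates 1, 2 and 3. The cerulein libraries were close together, whereas saline replicate 1 stood above the other saline libraries, as it did for the neutrophil markers given above; the part of those cells in it was not tested. The log2 fold change was 3.49 ± 0.25 (SE), or 11.2-fold, and 3.80 without saline replicate 1. Per kilobase of GENCODE exon, Klf6 averaged 164 ± 4.75 CPM after cerulein and 14.5 ± 5.21 CPM after saline (SD, n = 3 each), while 1700016G22Rik averaged 37.3 ± 11.7 CPM after cerulein (SD, n = 3) and was at 0 after saline. These per-kilobase values assume that only reads in exons were counted, which was not tested. The order of the cerulein libraries differed within the pair: replicate 1 was highest for 1700016G22Rik and lowest for Klf6.

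On chromosome 6, 5 of the genes lie within about 100 kb of each other. Ephb6 and Trpv6 end 109 bases apart, facing each other, Gm34642 runs away from Trpv6, and Trpv5 and Kel follow on the same strand as Trpv6. The lncRNA gene Gm34642 (gene ID 102637960, positions 41641730 to 41658017, plus strand) had 73, 131 and 129 reads in cerulein replicates 1, 2 and 3, equal to 8.64, 15.3 and 16.3 CPM, and 0 reads in each saline library. Cerulein replicate 1 was the lowest of its group. Against a floor of 3 reads over the saline group, the lower limit for Gm34642 was 70.0-fold, from 333 cerulein reads. It too leaves out the spread among the cerulein libraries.

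Trpv6 (gene ID 64177, positions 41620619 to 41636405, minus strand), the epithelial calcium channel gene, had 50.8, 91.7 and 119.8 CPM in cerulein replicates 1, 2 and 3, and 4.06, 9.91 and 7.20 CPM in saline replicates 1, 2 and 3. It varied more among libraries of a group than the other coding genes on this chromosome after cerulein, with the highest cerulein library 2.36 times the lowest, against 1.47 for Kel and 1.81 for Ephb6. The log2 fold change of Trpv6 was 3.69 ± 0.42 (SE), and leaving out 1 library at a time gave 3.30 to 4.03. Saline replicate 1 was the lowest Trpv6 library, and without it the value was 3.30. Within the cerulein group Trpv6 had the same order as Gm34642, lowest in replicate 1 and highest in replicate 3.

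Kel (gene ID 23925, positions 41686329 to 41704334, minus strand), the blood group peptidase gene, was nearly silent after saline. Kel had 1964, 2913 and 2492 reads in cerulein replicates 1, 2 and 3, and 16, 5 and 5 reads in saline replicates 1, 2 and 3. In CPM, Kel stood at 232, 341 and 315 after cerulein, and at 2.17, 1.13 and 1.29 after saline. Its log2 fold change was 7.49 ± 0.29 (SE), or 180.0-fold, which ranked 9 among all 12441 genes tested. Per kilobase of exon it reached 107 ± 20.4 CPM after cerulein, against 0.550 ± 0.202 CPM after saline (SD, n = 3 each). Trpv6 averaged 22.2 ± 8.82 CPM after cerulein and 1.79 ± 0.744 CPM after saline (SD, n = 3 each). As for Klf6, the per-kilobase values assume that only reads in exons were counted.

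Because Kel is known from red cells, red cell markers were read beside it. Their summed level was 98.1, 98.4 and 66.3 CPM in cerulein replicates 1, 2 and 3, and 51.7, 140.3 and 294 CPM in saline replicates 1, 2 and 3. These ranges overlap and none of the 4 markers tested was called. The part of red cells in the level of Kel was not tested. Among the listed markers, Alas2 lies inside another gene and was at 0 in all libraries.

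Ephb6 (gene ID 13848, positions 41603834 to 41620509, plus strand) had 112, 100 and 168 reads in cerulein replicates 1, 2 and 3, and 10, 6 and 2 reads in saline replicates 1, 2 and 3. Its CPM values were 13.3, 11.7 and 21.2 after cerulein, and 1.35, 1.35 and 0.514 after saline, a log2 fold change of 3.74 ± 0.38 (SE). Trpv5 (gene ID 194352, positions 41651661 to 41681224, minus strand), which encodes the channel best known from kidney, had 0 reads in all 6 libraries.

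Trpv5 shares 6357 bases with Gm34642 on the opposite strand, which is 21.5% of its span and 39.0% of that of Gm34642. The kit marks the strand of a read, but no label or file says whether counting used it, so reads in the shared stretch cannot be assigned with certainty. The other 23207 bases of Trpv5 are not shared with Gm34642. Of 6087 coding genes that overlap another gene in part or hold one, as Trpv5 does, 6.47% were at 0 in all libraries, against 27.8% of 14575 coding genes that overlap none and 94.6% of 827 that lie wholly inside another. The part of counting in the 0 of Trpv5 was not tested. Trpv5 and Trpv6 are paralogues, and their GENCODE transcripts share 0 stretches of 50 identical bases.

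On chromosome 10, the lncRNA gene Gm30963 (gene ID 102633042, positions 89736771 to 89741193, minus strand) had 331, 398 and 262 reads in cerulein replicates 1, 2 and 3, and 3, 0 and 1 reads in saline replicates 1, 2 and 3. In CPM it stood at 39.2, 46.6 and 33.1 after cerulein, and at 0.406, 0 and 0.257 after saline. The ratio of the summed levels was 156, with an exact 95% interval of 60.8 to 575 that covers counting error only. Its log2 fold change was 7.19 ± 0.38 (SE), and 8.13 without saline replicate 1, which held 3 of the 4 saline reads.

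Uhrf1bp1l (gene ID 75089, positions 89744968 to 89819891, plus strand), the lipid transfer gene next to it, showed the smallest difference of the 8 genes measured. Uhrf1bp1l had 86.8, 90.6 and 108 CPM in cerulein replicates 1, 2 and 3, and 30.6, 28.8 and 20.8 CPM in saline replicates 1, 2 and 3. The log2 fold change was 1.82 ± 0.18 (SE), or 3.52-fold, ranked 966 of 12441. As for Klf6 and unlike Trpv6, its order within the cerulein group was not that of its lncRNA: cerulein replicate 3 was highest for Uhrf1bp1l and lowest for Gm30963.

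**Figure D2:**
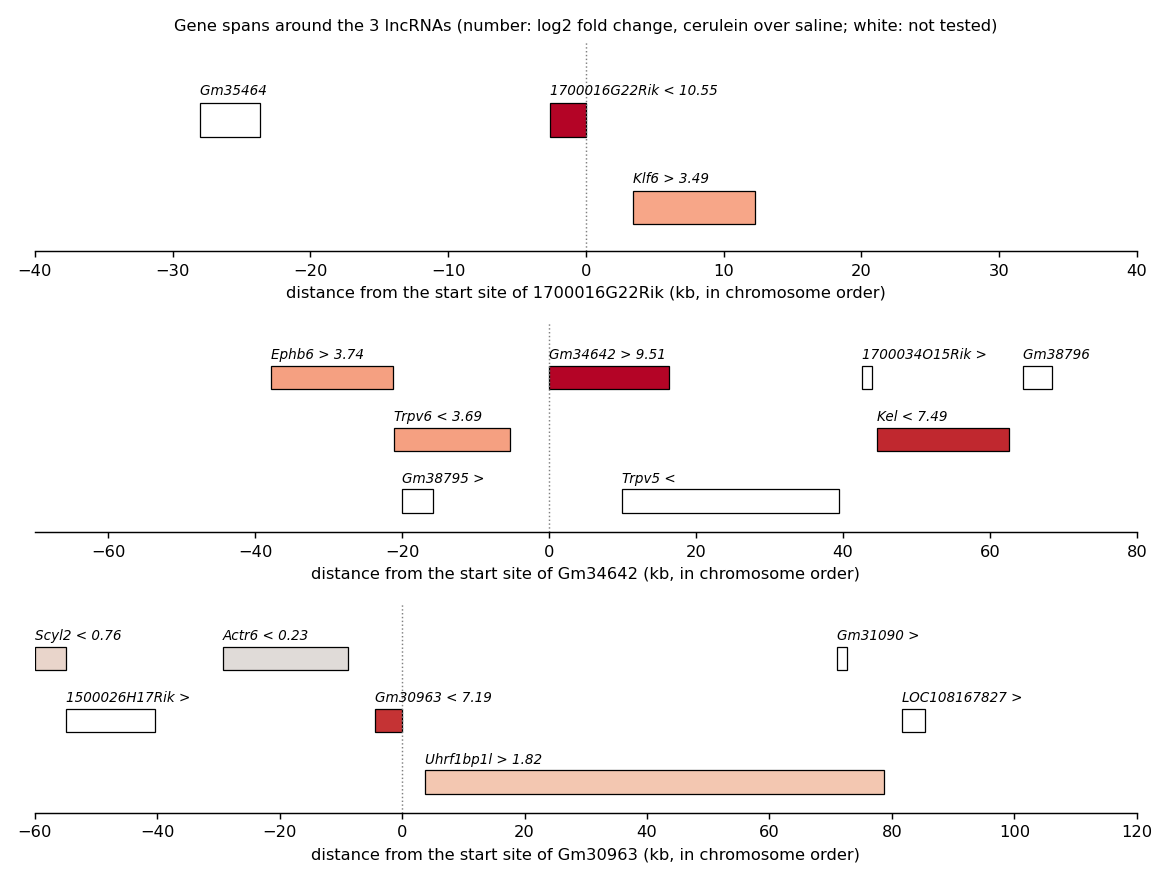
Gene spans around the 3 lncRNA genes, by distance in kilobases from the start site of the lncRNA, with > for the plus strand and < for the minus strand. Numbers and colours (red, higher) give the log2 fold change of cerulein over saline, and white genes were not tested. Klf6, Trpv6 and Uhrf1bp1l each start 3397 to 5325 bases from the start of their lncRNA and run away from it.

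The count of a lncRNA was also set against that of its divergent neighbour within the same library, which does not depend on how libraries are scaled. There were 5.39, 3.13 and 3.07 reads of 1700016G22Rik per 100 reads of Klf6 in cerulein replicates 1, 2 and 3. In saline, 0 reads of 1700016G22Rik stood against 1087 of Klf6 over the group, which at a limit of 3 reads allows 0.276 per 100. In saline replicate 1 alone, with 666 Klf6 reads, the limit was 0.450 per 100. Every cerulein ratio lay above these limits. The lncRNA genes were chosen for being near 0 after saline, which fixes low saline ratios, so nothing is read from the difference between the groups.

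For Gm30963 there were 45.2, 51.4 and 30.7 reads per 100 reads of Uhrf1bp1l in cerulein replicates 1, 2 and 3. Over the saline group there were 4 reads of Gm30963 against 435 of Uhrf1bp1l, or 0.920 per 100 (exact 95% interval 0.249 to 2.37). Cerulein replicate 3 had a lower ratio than the other cerulein libraries, and its interval of 26.6 to 35.3 did not reach theirs. Gm34642 had 17.0, 16.7 and 13.6 reads per 100 reads of Trpv6 in cerulein replicates 1, 2 and 3, ratios whose intervals overlap. The saline libraries held 102 reads of Trpv6 in all. At a limit of 3 reads this allows 2.94 reads of Gm34642 per 100 over the group. In saline replicates 1, 2 and 3 alone it allows 10.0, 6.82 and 10.7. The exact 95% upper ends are higher, at 3.68 over the group and 13.1, 8.75 and 14.1 in those libraries. In saline replicate 3 that end lies above the ratio of 13.6 in cerulein replicate 3. Against Kel, Gm34642 had 3.72, 4.5 and 5.18 reads per 100 in cerulein replicates 1, 2 and 3. At the limit of 3 reads, the 26 saline reads of Kel allow up to 11.5 per 100, so at this depth a change of that ratio was not detectable.

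**Figure D3:**
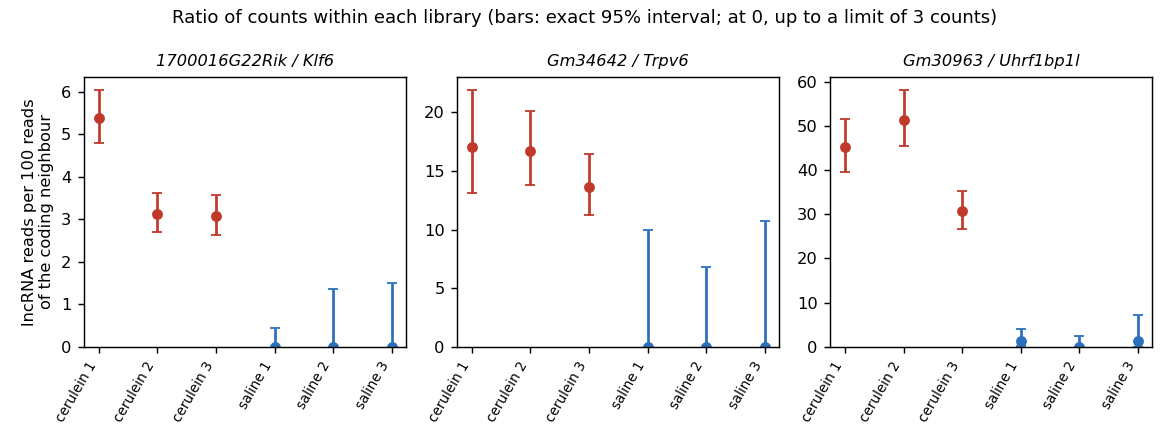
Reads of each lncRNA per 100 reads of its divergent coding neighbour in each library, cerulein in red and saline in blue. Bars are exact 95% intervals from counting error, and where the lncRNA had 0 reads they reach to the limit of 3 reads. That limit lies below the exact upper end. The ratio was 3.07 to 5.39 for 1700016G22Rik, 13.6 to 17.0 for Gm34642 and 30.7 to 51.4 for Gm30963 in cerulein libraries. In saline libraries the plotted ratios were 0 to 1.33, with limits of up to 10.7 for Gm34642, where few reads of Trpv6 were counted.

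The same pairing was then counted for all tested lncRNA genes, taking the nearest tested coding gene by start site. After 97 lncRNA genes that overlap that gene were left out, 288 had such a neighbour, and 73 of them were called higher. The neighbour was also called higher for 35 of these 73, or 47.9% (exact 95% interval 36.1 to 60), and lower for 18. That interval treats the lncRNA genes as independent, although all come from the same 6 libraries and some share a neighbour. It is therefore not used as a test. Over all 288 lncRNA genes the neighbour was called higher for 34.4%. Without the 3 lncRNA genes described here the shares were 45.7% of 70 and 33.7% of 285. For divergent pairs with start sites within 10 kb, an arrangement singled out after it was seen in the 3 pairs, the neighbour was called higher for 14 of 18 lncRNA genes that were called higher, against 37 of all 92. Without the 3 pairs described here these were 11 of 15 and 34 of 89. The pairs were not tested against each other.

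**Figure D4:**
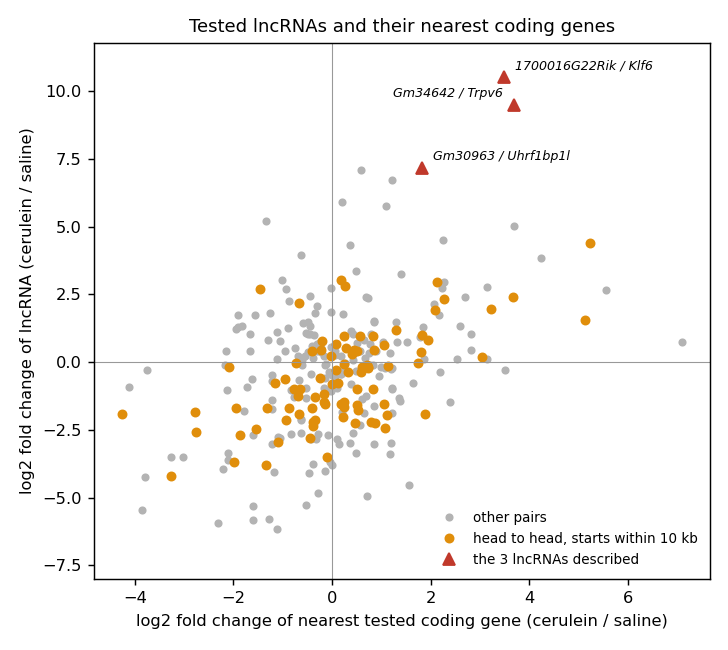
Log2 fold change (cerulein over saline) of 288 tested lncRNA genes against that of their nearest tested coding gene. Orange points are divergent pairs with start sites within 10 kb, red triangles are the 3 lncRNAs described, and grey points are the other pairs. The triangles, at 10.55, 9.51 and 7.19 on the vertical axis, lie above all other points. Their neighbours, at 3.49, 3.69 and 1.82, do not lie at the edge of the horizontal range. The 3 lncRNAs were chosen for few or no saline reads, which favours a high position, so nothing is read from it.

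The genes whose profile was most like that of each lncRNA were taken by the smallest root mean square difference of centred log2 CPM over the 6 libraries. This measure depends on the prior count of 2 for libraries at 0. Krt17, a keratin gene, was the closest to both 1700016G22Rik (difference 0.36) and Gm30963 (0.32), at 23.3, 23.6 and 19.6 CPM in cerulein replicates 1, 2 and 3, and 0.135, 0 and 0 CPM in saline replicates 1, 2 and 3. Next to 1700016G22Rik came the claudin gene Cldn4 and the lncRNA gene Gm30963, both at 0.47. Next to Gm30963 came 1700016G22Rik at 0.47 and the cytokine gene Lif at 0.55. Closest to Gm34642 were Itpkc, an inositol trisphosphate kinase gene, at 0.23, the keratin gene Krt8 at 0.27 and Nlrp4e at 0.28. None of these but Gm30963 and 1700016G22Rik is among the 9 genes. The neighbouring coding genes ranked lower among 12441 genes: Klf6 was 140 for 1700016G22Rik, Kel and Trpv6 were 120 and 132 for Gm34642, and Uhrf1bp1l was 945 for Gm30963. The measure largely follows the size of the fold change. As the lncRNA genes were chosen for being near 0 after saline, nothing is read from these ranks.

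Within 500 kb of the 3 lncRNA genes lay 65 other genes of the table, of which 53 were at 0 in all libraries and 40 lie inside another gene. Only 3 of the 65 passed the count filter, and those 3 are near Gm30963. As the 9 genes were chosen with results known, these are what the choice left over. Scyl2, a kinase-like gene of vesicle traffic 50.5 kb away, was called higher: it had 39.8, 43.1 and 50 CPM in cerulein replicates 1, 2 and 3, and 24.0, 27.7 and 27.3 CPM in saline replicates 1, 2 and 3 (log2 fold change 0.76 ± 0.16, adjusted p = 0.00133, edgeR). Nr1h4, which encodes the bile acid receptor FXR and lies 203 kb away, was called lower, with 1.54, 1.40 and 1.26 CPM after cerulein and 26.0, 30.9 and 29.3 CPM after saline (log2 fold change -4.33 ± 0.23, adjusted p = 1.51e-08, edgeR). Actr6, whose span ends only 4.45 kb from Gm30963, was not called, with a log2 fold change of 0.23 ± 0.54 (adjusted p = 0.737, edgeR). Genes near Gm30963 thus did not share 1 direction.

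Near 1700016G22Rik no other gene was tested, but 5 lncRNA genes had a few reads. Gm35464, 21.0 kb beyond 1700016G22Rik on the side away from Klf6, had 5, 4 and 5 reads in cerulein replicates 1, 2 and 3, and 0 in each saline library. LOC108168063, 57.6 kb away on the Klf6 side, had 5, 2 and 2 reads after cerulein and 0 in each saline library. Gm35413 had 4, 8 and 8 reads after cerulein and 0, 1 and 2 after saline. These 3 had few reads and were highest in cerulein libraries. Gm35671 had 5, 6 and 4 reads after cerulein and 3, 2 and 3 after saline, and its CPM ranges overlap, at 0.505 to 0.702 after cerulein and 0.406 to 0.771 after saline. Gm35330 had 0, 1 and 1 reads after cerulein and 0 in each saline library. Near Gm34642 the only other gene with reads was 1700034O15Rik, with 0, 1 and 1 reads after cerulein and 0 in each saline library. Of the 47 other genes within 500 kb of Gm34642, 46 were at 0 in all libraries and 37 lie inside another gene. Tcrb, for example, holds Try10, Prss2 and Try4. Across the table, 94.6% of 827 coding genes lying wholly inside another gene were at 0. A count of 0 for such a gene is therefore not read as absence of its transcript. The part of counting in these values was not tested.

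The relatives of each coding gene were read from lists. In the Krüppel-like family, without Klf6, 10 of 13 tested genes were called higher and 2 lower, beside 28.7% and 27.1% of all genes tested. The median log2 fold change was 1.17, against -9.1e-04 over all genes. Klf16, Klf5 and Klf10 rose by 2.46 ± 0.21, 3.10 ± 0.29 and 1.44 ± 0.16 on the log2 scale (adjusted p = 8.05e-07, 1.91e-06 and 5.88e-06, edgeR). Klf15 fell, to 8.44 ± 1.97 CPM after cerulein against 214 ± 20.2 CPM after saline (SD, n = 3 each; log2 fold change -4.67 ± 0.21, adjusted p = 7.86e-09, edgeR). With library size alone 1 was called lower. The difference of Klf6, 3.49, was above that of each of the 13. Klf6 was chosen from this comparison, so nothing is read from that order.

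The list of epithelial calcium transport holds channels, pumps and calcium sensors, and also genes of channel trafficking, ubiquitination and vitamin D activation. Of its 18 tested genes, 5 were called higher and 2 lower, with a median log2 fold change of 0.13. The share called higher, beside 28.7% of all genes tested, was near that background. Anxa2 and S100a10, known to form a complex that brings Trpv5 and Trpv6 to the membrane, rose by 3.37 ± 0.23 and 1.86 ± 0.23 (adjusted p = 1.58e-07 and 1.79e-05, edgeR). The calmodulin gene Calm2 rose by 2.31 ± 0.17, and Orai2, a store-operated channel subunit, fell by 1.71 ± 0.16 on the log2 scale (adjusted p = 2.21e-07 and 1.27e-06, edgeR). Without saline replicate 1, 8 were called higher. Only 1 was called lower when any library other than saline replicate 1 was left out, and with the replicate block, DESeq2 or the filter on CPM. Upper-quartile factors gave 4 higher and 3 lower calls. With library size alone 11 were called higher and 1 lower.

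Of 12 tested Eph receptor and ephrin genes, 5 were called higher and 2 lower, with a median of 0.25. Over all genes tested, 28.7% were called higher and 27.1% lower. Epha2 had 52.9 ± 4.75 CPM after cerulein and 3.17 ± 1.75 CPM after saline (SD, n = 3 each; log2 fold change 3.94 ± 0.28, adjusted p = 1.54e-07, edgeR). Its ligand gene Efna1 rose by 2.15 ± 0.20, and Ephb3 and Ephb2 by 2.77 ± 0.33 and 2.96 ± 0.47 (adjusted p = 1.63e-06, 1.27e-05 and 1.38e-04, edgeR). Only 1 was called lower when saline replicate 2 or 3 or cerulein replicate 3 was left out, and with library size alone, limma-voom or the replicate block. Of 4 tested genes of the neprilysin peptidase family, Xk and the endothelins, the relatives and partners of Kel, 1 was called higher and the other 3 were not called. That share was near the 28.7% of all genes called higher. The gene called was Edn1, encoding endothelin 1, with a log2 fold change of 1.65 ± 0.38 (adjusted p = 0.00258, edgeR). Xk, whose protein is bound to the Kell protein on red cells, had 0.19 ± 0.23 (adjusted p = 0.515), Ece2 had 0.55 ± 0.22 (adjusted p = 0.0507) and Ece1 had -0.12 ± 0.15 (adjusted p = 0.533). In that list 2 were called higher without saline replicate 2, and with the replicate block, limma-voom, no count filter or the filter on CPM, and 3 with library size alone.

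Among 14 bridge-like lipid transfer genes and syntaxin partners, the relatives of Uhrf1bp1l, 3 were called higher and 7 lower, with a median log2 fold change of -0.28. The shares over all genes tested were 28.7% higher and 27.1% lower. The 4 with the smallest p were lower: Atg2b, Vps13c, Vps13b and 4932438A13Rik fell by 1.52 ± 0.18, 2.44 ± 0.31, 1.21 ± 0.17 and 1.62 ± 0.23 on the log2 scale (adjusted p = 1.52e-05, 3.16e-05, 4.86e-05 and 5.73e-05, edgeR). The closest relative, Uhrf1bp1, is named after its value was seen, at a log2 fold change of 0.49 ± 0.17 (adjusted p = 0.0244, edgeR). Uhrf1bp1l itself, at 1.82, stood above all 14, but it was chosen from this comparison and nothing is read from that order. Only 1 was called higher when saline replicate 3 or cerulein replicate 3 was left out, and with upper-quartile factors or DESeq2. Without cerulein replicate 2, 4 were called lower. With library size alone 5 were called higher and 4 lower, so that this list has no direction that holds under every scaling.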

How the data were processed

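RNA from 6 pancreas samples was made into libraries with a strand-marking mRNA kit, per the labels' protocols. The values are whole-number read counts for each gene and library, as the authors deposited them. Trimmomatic, STAR, HTSeq and mm10 are named, without versions, in the submitters' processing notes. The annotation and strand setting were not given in the sources used here. Of 36333 rows, 32882 matched a RefSeq GRCm38.p6 gene by symbol, 1378 by gene ID and 986 by a unique older symbol, which gave class and position.

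Tests used edgeR 4.0.16 under R 4.3.3 (filterByExpr with a minimum count of 10 and total of 15, TMM, robust quasi-likelihood F test, two-sided, Benjamini-Hochberg over 12441 genes, called at an adjusted p under 0.05), after a test on simulated data. Standard errors come from the F statistic, and CPM is given per TMM-scaled library size. Intervals of read ratios and limits (3 reads) cover counting error only. limma 3.58.1 and DESeq2 1.42.0, other scalings and filters and leaving out each library were alternatives. The 9 genes and the lists were chosen with earlier results of these data known. Named are these genes, called genes within 500 kb of a lncRNA, the 3 genes most like each, and up to 4 genes of each list with the smallest p. Other genes named were chosen after their values were seen. Replicate numbers were not used as pairs.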

Additional observations from a re-analysis of the deposited data

How the results depend on the processing

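All 8 measured genes were higher after cerulein under each of 13 alternatives. For the genes with few or no saline reads the size depended on the method: 1700016G22Rik had a log2 fold change of 10.55, but 8.08 with limma-voom and 9.56 with DESeq2, and Gm34642 had 9.51, but 7.03 and 8.51. Leaving out 1 library gave 10.20 to 10.67 for 1700016G22Rik, 7.32 to 7.89 for Kel and 6.75 to 8.13 for Gm30963. With library size alone the values were 3.99 for Klf6, 8.02 for Kel, 4.30 for Ephb6, 7.70 for Gm30963 and 2.37 for Uhrf1bp1l, 1449 genes were called lower, and 7 in place of 13 members of the lists were called lower. With no count filter 2 genes within 500 kb were called higher, the second being Gm35464. A window of 200 kb held 0 genes called lower by edgeR, as both genes tested there had positive log2 fold changes, and one of 1000 kb held 4 called higher and 3 lower. The share of called-higher lncRNAs with a called-higher neighbour was between 46.2% and 56.1% over fits and filters, and 77.8% for the divergent pairs within 10 kb. Deviations of same-numbered libraries correlated at 0.19, 0.216 and -0.15, and 4 of 6 libraries correlated best with their own number. These values do not settle whether the numbers are pairs. The labels state no pairing, so the numbers were not taken as pairs. With the replicate block 3673 genes were called higher and 3401 lower. Reads of Kel and Trpv6 in saline limit what can be said of their ratio to Gm34642.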

Other observations

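Other divergent pairs in which both the lncRNA gene and its coding neighbour were called higher had some reads after saline. They are named here after their values were seen. Gm36026, which starts 1801 bases from the keratin gene Krt8, had 211 reads over the cerulein libraries and 6 over the saline libraries (log2 fold change 4.41), beside 5.24 for Krt8. Gm39227, which starts 963 bases from the metallothionein gene Mt2, had 133 and 11 reads after cerulein and saline (2.95, beside 2.13 for Mt2). Map2k3os, which starts 187 bases from the kinase gene Map2k3, had 213 and 26 reads after cerulein and saline (2.42, beside 3.67 for Map2k3). For 0610009L18Rik, which starts 183 bases from the actin gene Actg1, the lncRNA was at 1.55 and the coding gene at 5.13. In these pairs either the lncRNA gene or the coding gene had the larger log2 fold change. In the 3 pairs with 1700016G22Rik, Gm34642 and Gm30963 it was the lncRNA gene. Those 3 lncRNA genes were chosen for having few or no saline reads, which by itself favours a large log2 fold change. Nothing is therefore read from the contrast with the other pairs. None of these pairs was tested against the others.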
